A study of Mus musculus with 36 samples.

Results

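The TATA-binding protein TBP was mapped by CUT&RUN in RT7 and RT10, a pair of mouse embryonic stem (ES) cell lines that carry the tamoxifen-inducible recombinase CreERT2 as R26CreERT2/+ together with floxed alleles, Taf7flox/flox in RT7 and Taf10flox/flox in RT10. The lists described here come from the ethanol (EtOH) groups, the vehicle control given from day 1 to day 3 after plating, so no deletion was induced by design. Cells grew in serum with leukaemia inhibitory factor, CHIR99021 and PD0325901, the conditions that hold ES cells in a naive pluripotent state. All summits of these 2 lists were taken, 2666 in RT7 and 3102 in RT10, which is 5768 of the 9335 summits in the 4 lists of the series. A summit is the single base at which a called peak of TBP over the IgG control was highest, and its score is the −log10 q-value there. The labels give 2 TBP libraries and 1 IgG library per group but each list names no replicate, so a list is 1 measurement per line, no test between the lines was run, and line, genotype and control library cannot be told apart. The RT7 EtOH IgG library carries a 4-OHT treatment label although its title says EtOH, and the title was followed.

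TBP is the DNA-binding subunit of TFIID, the factor that with its TBP-associated factors (TAFs, among them TAF7 and TAF10) nucleates the RNA polymerase II preinitiation complex at promoters. It is also a subunit of TFIIIB, which recruits RNA polymerase III to tRNA and other small RNA genes, and of SL1 at ribosomal DNA. TBP binds the minor groove of TATA boxes, which lie shortly upstream of the start site in a minority of mammalian promoters, while most promoters lack one and recruit TFIID through other contacts.

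The sequences below are the promoters of 5 genes among the 25 best-scored common sites at protein-coding gene ends and of 2 genes with a single-list site. Each is the 200 bases before a RefSeq start in GRCm38.p6 (the assembly mm10), read on the gene strand, with the strings TATAAA or TATATA and the string CCAAT (in either orientation, so also ATTGG) in capitals. CCAAT is the letter string bound by the trimeric factor NF-Y. The first 5 belong to genes near the top of both lists, namely a core histone, the endoplasmic reticulum chaperone calreticulin, a zinc finger factor of the immediate early response, a ribosomal protein and the largest RNA polymerase II subunit. Rab5a had a summit in the RT7 list alone and Gtf2h4 in the RT10 list alone.
H2ac6, chr13:23683960-23684159, minus strand: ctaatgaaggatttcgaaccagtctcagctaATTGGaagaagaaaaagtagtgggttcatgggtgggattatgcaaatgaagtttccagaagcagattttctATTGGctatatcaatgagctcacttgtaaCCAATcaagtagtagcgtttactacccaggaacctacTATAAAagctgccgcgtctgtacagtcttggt
Calr, chr8:84846932-84847131, minus strand: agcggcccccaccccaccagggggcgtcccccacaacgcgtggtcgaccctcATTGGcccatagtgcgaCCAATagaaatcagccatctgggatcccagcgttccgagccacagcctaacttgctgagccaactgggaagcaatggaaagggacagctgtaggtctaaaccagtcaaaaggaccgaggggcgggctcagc
Klf6, chr13:5861289-5861488, plus strand: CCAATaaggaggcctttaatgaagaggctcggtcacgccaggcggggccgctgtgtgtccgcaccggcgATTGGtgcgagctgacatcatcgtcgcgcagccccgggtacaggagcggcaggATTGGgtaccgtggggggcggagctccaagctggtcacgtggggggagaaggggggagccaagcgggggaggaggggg
Rps26, chr10:128626507-128626706, minus strand: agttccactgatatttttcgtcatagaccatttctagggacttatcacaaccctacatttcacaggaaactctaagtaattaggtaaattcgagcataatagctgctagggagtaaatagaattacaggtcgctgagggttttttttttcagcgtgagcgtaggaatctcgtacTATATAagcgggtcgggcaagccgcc
Polr2a, chr11:69758634-69758833, minus strand: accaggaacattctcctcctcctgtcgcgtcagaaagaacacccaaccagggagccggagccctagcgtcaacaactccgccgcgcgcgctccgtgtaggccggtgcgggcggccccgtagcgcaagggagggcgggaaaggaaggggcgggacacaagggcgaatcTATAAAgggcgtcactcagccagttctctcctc
Rab5a, chr17:53479034-53479233, plus strand: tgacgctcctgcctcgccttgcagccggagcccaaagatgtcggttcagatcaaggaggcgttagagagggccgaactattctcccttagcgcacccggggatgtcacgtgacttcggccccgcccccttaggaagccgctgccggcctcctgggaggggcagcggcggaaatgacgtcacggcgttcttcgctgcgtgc
Gtf2h4, chr17:35673744-35673943, minus strand: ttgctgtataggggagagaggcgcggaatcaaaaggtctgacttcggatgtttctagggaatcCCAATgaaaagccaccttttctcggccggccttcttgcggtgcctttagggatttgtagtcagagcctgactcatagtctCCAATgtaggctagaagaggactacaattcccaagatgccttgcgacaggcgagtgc
H2ac6 held TATAAA at −32 and 3 CCAAT matches, and its summits lay at −137 in RT7 and −120 in RT10. Calr had 2 CCAAT matches upstream of its annotated start and its only TATA match at 33 bases after that start, with summits at −62 and −67. Klf6 had 3 CCAAT matches and no TATA match, and summits at −147 and −123. Rps26 and Polr2a had a TATA match at −26 and −33 without CCAAT, and their summits lay at −158 and −192 and at −169 and −205. The last of these lies before the printed stretch. Neither Rab5a nor Gtf2h4 held a TATA match, and Gtf2h4 had 2 CCAAT matches.

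Most summits of either line had a counterpart in the other, and counterparts were more frequent among high-scored summits. Of the RT7 summits, 1733 (65.0%, exact 95% interval 63.2 to 66.8) had an RT10 summit within 250 bp. Of the RT10 summits, 1727 (55.7%, 53.9 to 57.4) had an RT7 summit within that distance. Pairs that were each other's nearest summit numbered 1726 and are called common sites below. Their summits lay a median of 56 bp apart (quartiles 24 and 109), and 46.2% were within 50 bp. The farthest accepted pair was 250 bp apart and the nearest rejected RT7 summit 252 bp from an RT10 summit. Intervals cover counting error only, since read depth is unknown.

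Scores of separate lists depend on depth, so sites were compared by percentile rank within each list, 100 being the highest score. Each list was split every 10 percentile points into 10 score groups, which held 148 to 454 summits because tied scores stay together. In the lowest group 36.7% of RT7 and 21.0% of RT10 summits had a partner, and in the highest 89.6% and 91.6%. Summits with a partner had a median percentile rank of 60.3 in RT7 and 67.1 in RT10, against 29.4 and 30.4 for summits without one. A missing partner means that no peak was called there, not that TBP was absent.

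**Figure D1:**
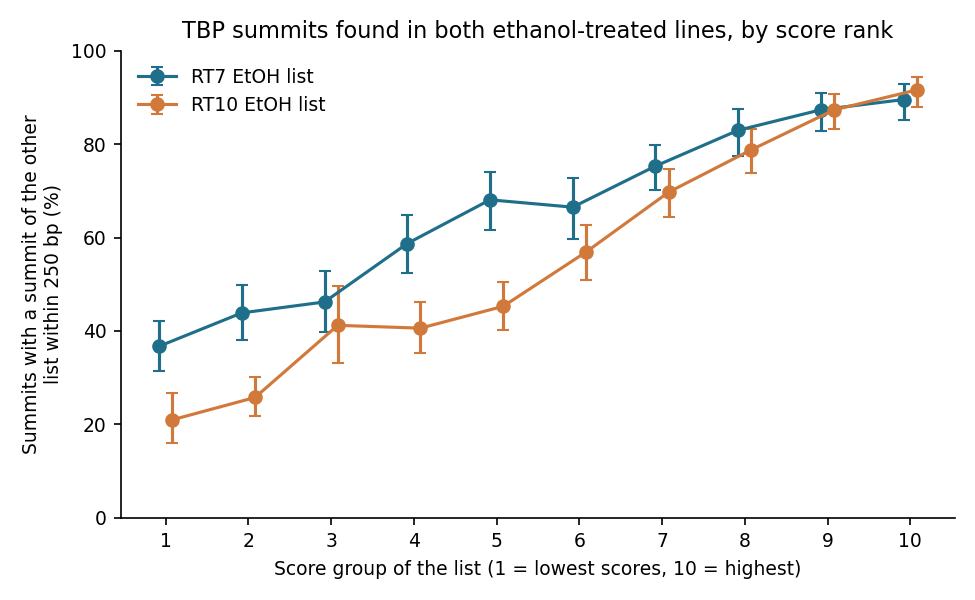
Share of TBP summits with a summit of the other list within 250 bp (vertical axis, percent) for each of 10 score groups of a list, from the lowest scores to the highest (horizontal axis), in RT7 and RT10 EtOH; bars are exact 95% intervals for counting error. The share is 36.7% in the lowest and 89.6% in the highest group of RT7, and 21.0% and 91.6% in RT10.

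Ranks of common sites went together across the lines. The Spearman correlation of the scores over the 1726 sites was 0.659, given as a description because sites of 1 list share libraries and many share a score (458 distinct scores in RT7, 575 in RT10). Of the common sites, 739 (42.8%) lay within 10 percentile points in the 2 lists, and 114 (6.60%) lay 50 or more points apart. Among the 100 best-scored places, 61 sites were in the top 100 of both lists, and 92 of the RT7 and 91 of the RT10 top 100 had a partner.

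**Figure D2:**
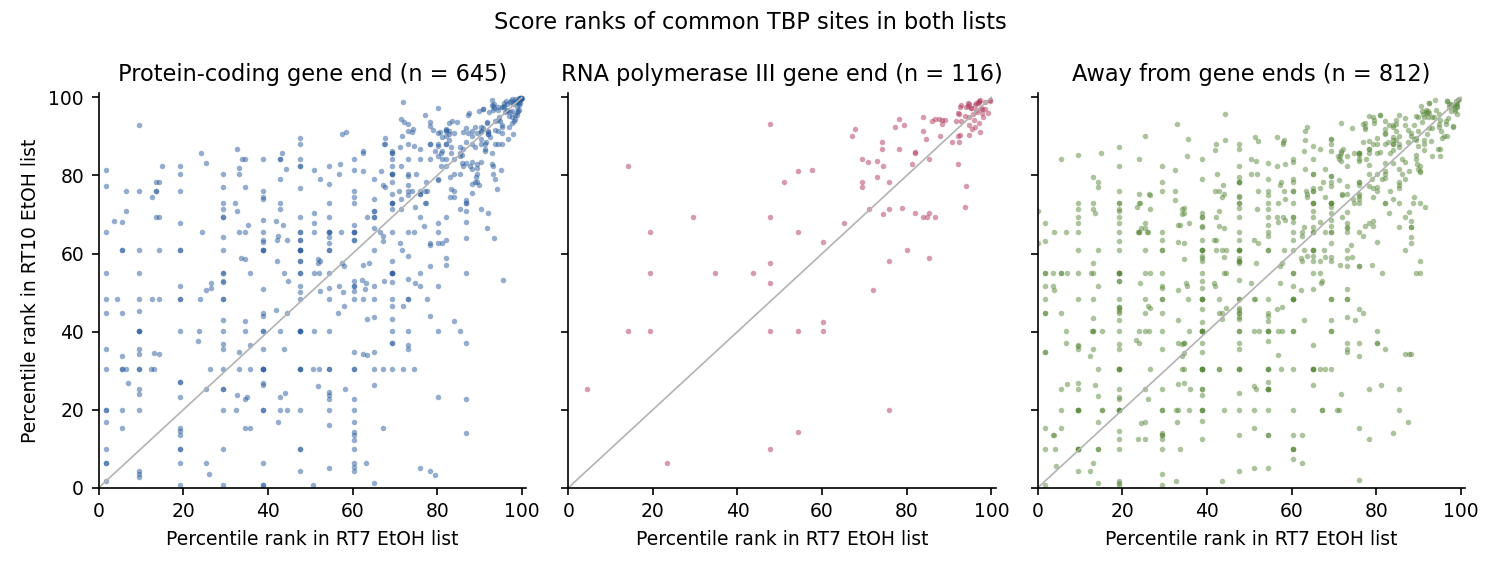
Percentile rank of each common site in the RT7 list (horizontal axis) and the RT10 list (vertical axis), for sites at protein-coding gene ends (645), RNA polymerase III gene ends (116) and away from gene ends (812); the grey line marks equal rank. Points crowd into the upper right corner at RNA polymerase III genes, and rows and columns of points are tied scores.

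Common sites were at gene ends more often than summits without a partner. A summit was assigned to the nearest gene end of the RefSeq table within 500 bp, either end being allowed because that table gives no strand. By this rule 52.9% of common sites (50.5 to 55.3) were at a gene end, against 40.2% (37.0 to 43.4) of unpaired RT7 and 37.8% (35.2 to 40.4) of unpaired RT10 summits. Unpaired summits also ranked lower, and gene ends did not lead in every rank group. Above rank 90, 94.3% of RT7 and 95.9% of RT10 summits at protein-coding gene ends had a partner. Inside genes 93.5% and 97.9% had one, between genes 86.0% and 88.6%, and at RNA polymerase III gene ends 79.3% and 81.4%. At ranks up to 50 it was 53.3% and 40.9% at protein-coding gene ends and 47.5% and 31.5% inside genes. Protein-coding genes held 37.4% of common sites, RNA polymerase III genes 6.72% and other genes 8.81%. A further 24.7% lay inside genes and 22.3% between genes, away from any end. The mix changed with rank. Among the 100 common sites with the highest mean rank, 46 were at protein-coding and 24 at RNA polymerase III gene ends, 9 lay inside genes and 11 between genes. In the lowest group, the common sites after the 1000th, RNA polymerase III genes made up 2.62%, sites inside genes 29.9% and sites between genes 24.0%.

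Of the 25 best-scored common sites at protein-coding gene ends, 8 were at replication-dependent histone genes and the others at genes of varied function. The 1st common site was mitochondrial, at ND1, with scores of 286 in RT7 and 453 in RT10. Mitochondrial DNA is present in many copies per cell, and its 2 summits per list are only listed here. The highest nuclear site lay between the divergent histone genes H2bc4 and H2ac6, with scores of 167 and 135 (3rd and 4th in their lists). Calr, a calcium-binding chaperone, followed with 138 and 144, and then the end of Med16, a Mediator subunit, with 135 and 122. The Med16 summit was at the same base in both lists and within 500 bp of a small nuclear RNA gene model, Gm24019, so its gene cannot be told apart. H3c1 scored 129 and 118, Arrdc2, an arrestin-domain gene, 81.1 and 103, and the pair Cep95 and Ddx5, the latter an RNA helicase, 120 and 81.6. The histone, Calr and Med16 sites stood 3rd to 6th in both lists, while Cep95 with Ddx5 was 7th in RT7 and 17th in RT10.

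Further down the 25 best, Tubb4b, a beta-tubulin, scored 59.8 in RT7 and 99.2 in RT10. The polyubiquitin gene Ubb scored 77.4 and 56.9. Klf6 scored 60.9 and 58.6, the immediate early factor Egr1 53.3 and 61.7, and the stress-granule protein gene G3bp1 57.4 and 58.3. Rps26 scored 51.8 and 64.8, and Polr2a 41.0 and 66.8. Khsrp, Traf7, Hes7, Vps26a and Get3 completed the list beside 6 further histone sites, at H2ac8 with H2bc8, H2ac7 with H2bc7, H2ac12 with H2bc12, H2bc3, H2bc13 with H2ac13, and H3c6. The Hes7 site also lay within 500 bp of the tRNA genes n-TRtct4 and n-TLtag3, so its gene cannot be told apart. Of 709 common sites with a protein-coding gene end, 131 (18.5%) had 2 or more such genes with an end within 500 bp. Either end of a gene counted, so these are not all shared promoters. Of all 21900 protein-coding genes, 1165 (5.32%) had an RT7 summit, 1305 (5.96%) an RT10 summit and 880 (4.02%) a summit in both lists within 500 bp of an end. Genes with a summit in both lists had a median mean percentile rank of 61.9, and 108 ranked above 90 in both. The gene lists that follow are read against these shares, or against 2.58% of all 49980 genes (3.3% in RT7 and 3.69% in RT10) for noncoding genes.

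Histone genes stood at the top by rank. Of 63 core and linker histone genes, a family whose main members are transcribed in S phase, 31 (49.2%) had a summit in both lists, with a median mean percentile rank of 97.1. Of these, 21 ranked above 90 in both. Many are divergent pairs that share a summit, so the genes are not independent. H4c9 (score 34.7) was found in RT7 alone and H3c2 (27.4) in RT10 alone. Linker histone gene H1f3 had a summit in each list, 1080 bp apart and at opposite ends of the gene, scoring 23.3 in RT7 and 40.9 in RT10.

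Genes of small noncoding RNAs formed the other dense group. Of 14 U small nuclear and U3 RNA genes transcribed by RNA polymerase II, 11 (78.6%) had a summit in both lists, with Rnu5g at scores of 29.4 and 27.4 and Rnu2-10 at 35.8 and 21.1. Of 403 tRNA genes, 160 (39.7%) had one, with a median mean percentile rank of 89.3, and 64 ranked above 90 in both. Bound tRNA genes covered all 20 amino acids, with shares from 5 of 7 phenylalanine genes (71.4%) to 4 of 56 cysteine genes (7.14%). The best were n-TWcca7 with n-TGtcc6, sharing a summit scored 78.2 in RT7 and 79.7 in RT10, and n-TEctc11 with n-TFgaa4 at 88.0 and 69.0. Of 60 other RNA polymerase III genes 4 (6.67%, with an interval of 1.85 to 16.2 that includes the 2.58% of all genes) had a summit in both lists, namely Rny1, Rmrp, Rn7s2 and Rpph1, which encode Y RNA, the RNase MRP RNA, a 7SL RNA and the RNase P RNA. Summits are placed among near-identical copies only as well as short reads allow, so which tRNA or small nuclear RNA copy holds a summit is uncertain.

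Signal-responsive genes were also frequent. Of 36 immediate early genes, 18 had a summit in both lists, with a median mean percentile rank of 84.6. Besides Klf6 and Egr1, the circadian gene Per1 scored 54.8 and 38.1, Fosb 27.9 and 42.3, and Fos 26.8 and 39.5. Atf3, Id2 and Ier3 had a summit in RT7 alone. Of 20 heat shock genes 8 had a summit in both lists, 1 in RT7 alone and 5 in RT10 alone. The constitutive chaperones Hspa8 (41.7 and 39.5) and Hsp90ab1 (28.1 and 26.1) led this group. Of 25 genes of the endoplasmic reticulum chaperone and stress list, 6 had a summit in both lists, among them Hspa5, encoding BiP, at 21.8 and 15.6. Metallothionein gene Mt1 scored 24.1 and 28.8, while its neighbour Mt2 scored 12.6 in RT7 and 2.00 in RT10.

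Genes of protein synthesis and RNA processing came next. Of 85 cytoplasmic ribosomal protein genes 24 (28.2%) had a summit in both lists, with Rps26, Rpl10 (34.7 and 48.1) and Rpl4 (24.3 and 23.9) highest. Of 78 mitochondrial ribosomal protein genes 6 (7.69%) had one, with an interval of 2.88 to 16.0 that includes the share of all protein-coding genes. Of 21 small nucleolar RNA host genes 10 had a summit in both lists, among them Gas5 at 19.4 and 19.9. Of 42 translation factor genes 12 had one, led by Eif4a1 at 37.5 and 51.4. Of 50 splicing and hnRNP genes 15 had one, with Hnrnpa1 at 29.4 and 39.5 and the splicing factor gene Srsf2 at 23.1 and 34.9. Of 24 actin and tubulin genes 9 had one, with Tmsb10 (15.9 and 30.2) behind Tubb4b. Many of these sites scored low: with a score of at least 10 in both lists, 293 protein-coding genes kept a summit in both, among them 8 cytoplasmic ribosomal protein, 5 splicing and hnRNP, 6 translation factor, 5 small nucleolar RNA host, 4 actin and tubulin and 3 heat shock genes.

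**Figure D3:**
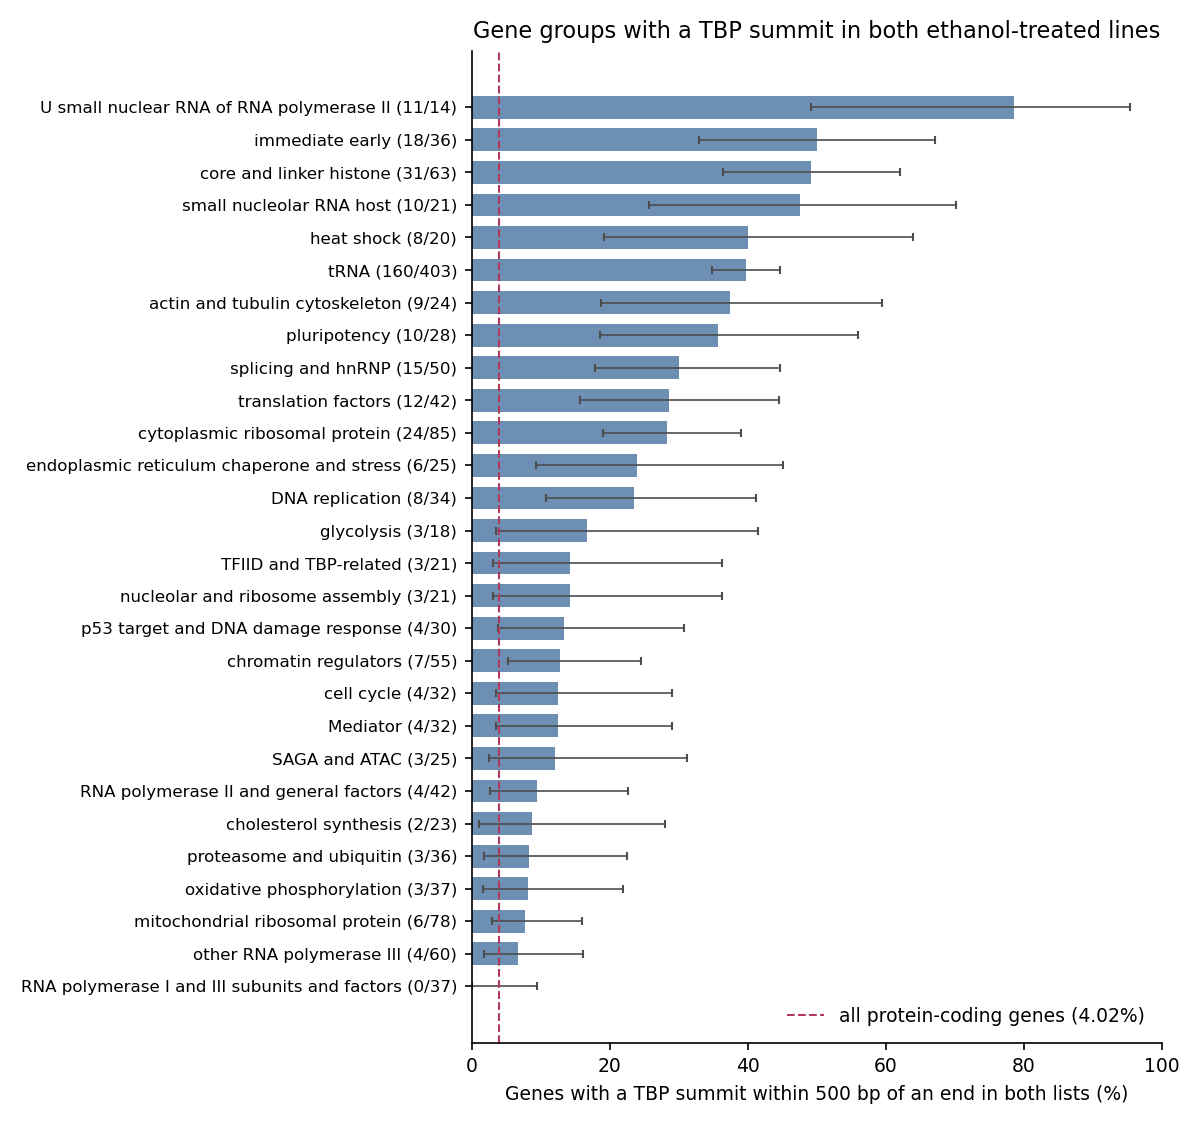
Share of genes with a TBP summit within 500 bp of an end in both EtOH lists (horizontal axis, percent) for each gene list of 14 or more members, with members called over members in the table in brackets and exact 95% intervals for counting error; the dashed line is the 4.02% of all protein-coding genes. U small nuclear RNA, immediate early and histone genes are at 49.2% or above, and RNA polymerase I and III subunits at 0 of 37.

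Like most protein-coding genes, most genes of the transcription machinery itself had no summit in both lists. The share with one was 14.3% for TFIID and TBP-related, 12.5% for Mediator and 9.52% for RNA polymerase II and general factor genes. Of 21 TFIID and TBP-related genes 3 had one, Taf15 (14.2 and 8.09), Taf13 (4.83 and 8.23) and Taf8 (5.57 and 2.44), and Taf4 had a summit in RT7 alone. Neither Taf7 nor Taf10, the floxed genes, had a summit at an end in either list, as was so for most protein-coding genes. Of 42 RNA polymerase II and general factor genes 4 had one, Polr2a, Hexim1 (34.6 and 43.8), which encodes an inhibitor of the elongation factor P-TEFb, Gtf2a1 and Gtf2h1. Of 32 Mediator genes 4 had one, and of 37 genes for RNA polymerase I and III subunits and factors 0 did (4 in RT7 alone and 1 in RT10 alone). Of 37 oxidative phosphorylation genes 3 and of 23 cholesterol synthesis genes 2 had a summit in both lists. The 95% intervals of these 6 lists include the 4.02% of all protein-coding genes.

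The labelled cell type was checked on marker lists. Of 28 pluripotency genes, 10 (35.7%) had a summit in both lists, 3 in RT10 alone and 0 in RT7 alone, and 3 had one in both at a score of at least 10. Nanog, a core naive factor, scored 22.7 and 41.3, Tbx3 11.5 and 18.7, Stat3, the effector of leukaemia inhibitory factor, 18.2 and 10.8, and Klf2 9.25 and 19.9. Sox2 was called in RT10 alone with a score of 1.70, near the lowest of that list (1.36). Pou5f1, Klf4 and Esrrb had no summit within 500 bp of an end, but a common site lay 1736 bp from Pou5f1, inside Esrrb, and 49535 bp from Klf4. Within 50000 bp of the gene, 17 of 28 pluripotency genes (60.7%, 40.6 to 78.5) had a common site, against 3836 of 21900 protein-coding genes (17.5%). Nanog, Dppa3 and Gdf3 are neighbours on chromosome 6, so the genes are not independent at this distance. Of the 6 two-cell-like, 6 primitive endoderm, 4 mesoderm and 5 neural genes, 0 had a summit at an end in either list. Of the trophoblast list only Eomes (5.68 and 1.41, at positions over 250 bp apart) and of the fibroblast list only Fn1 (7.34 and 3.75) had one. These lists are short, and at the 4.02% of all protein-coding genes counts of 0 or 1 are no result about the cell type.

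TBP summits sat upstream of gene starts. A separate RefSeq promoter table, with strand, covered 21263 starts of 17492 protein-coding genes, and 943 RT7 and 1086 RT10 summits lay within 500 bp of one. Their median position was −119 in RT7 (quartiles −208.5 and 7) and −111 in RT10 (−204 and 23), and 73.8% and 71.6% were upstream of the start. Summits with a partner had medians of −118 and −114.5, and those without one −122 and −100. Common and single-list summits therefore took similar positions. At the 46 starts with a common site and a TATA match, the summit lay a median of 88.5 bases upstream of the match in RT7 and 89.5 in RT10. The spread was wide, with quartiles of −129.5 and 83.5 in RT7 and −126.75 and 62.25 in RT10, positive being downstream of the match. Of genes with a known start and a summit at an end, 91.2% in RT7 and 92.2% in RT10 had it at a start.

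**Figure D4:**
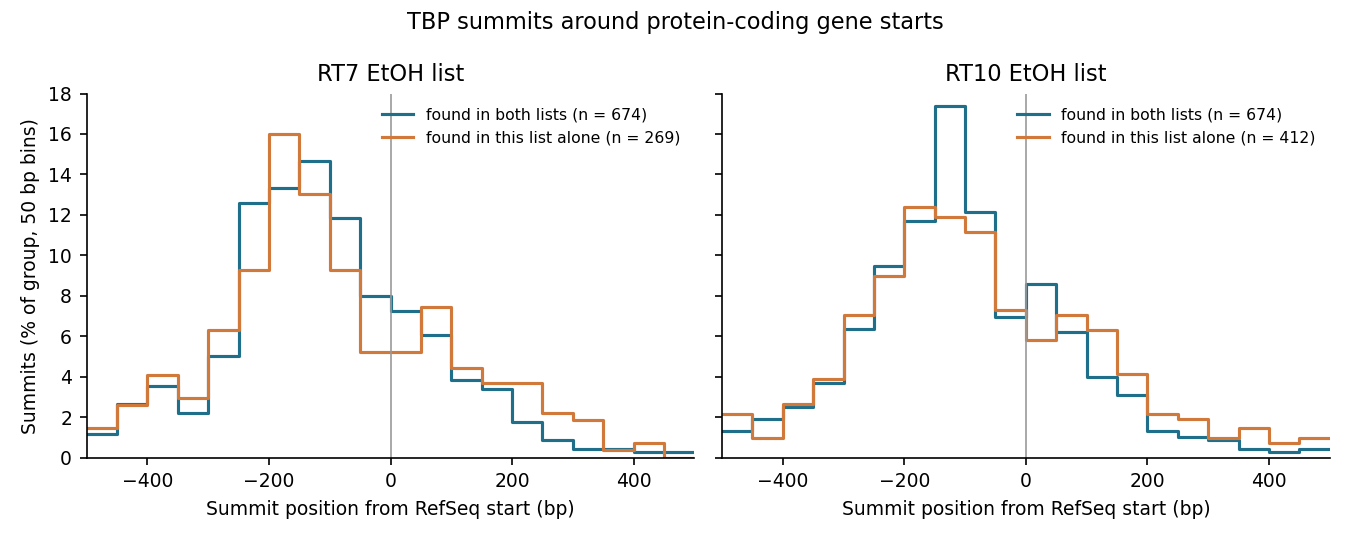
Distribution of summits by position relative to the nearest RefSeq protein-coding start (horizontal axis, bp, negative is upstream; vertical axis, percent of the group in bins of 50 bp), for summits with a partner in the other list and for those found in 1 list alone. Both groups peak upstream of the start, at medians between −122 and −100.

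The share of promoters with a TATA match varied with the rank of the common site. The match was TATAAA or TATATA on the gene strand, beginning 40 to 20 bases before the start. It was present at 5.26% of 874 starts with a common site (3.88 to 6.96), against 3.43% of all starts. The share was 10.7% (5.85 to 17.7) of 121 starts whose common site ranked above 90, 7.49% at ranks of 75 to 90, 4.51% at 50 to 75 and 2.33% (0.943 to 4.75) at ranks up to 50. Leaving out the histone genes gave 10.7% in the highest group too. Starts with a summit in RT7 alone had 2.21% (0.817 to 4.76) and in RT10 alone 1.62% (0.652 to 3.30). Of 56 starts with a summit of each list but no common site, 12.5% (5.18 to 24.1) had a match. The intervals of the rank groups above 75 lie above the share of all starts, and those of the rank groups below 75 include that share. The RT10-alone interval lies below it, and the RT7-alone interval includes it. These intervals treat starts as independent, though 1 gene can have several (121 starts of 105 genes above rank 90). The rank groups were not counted with 1 start per gene.

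Other letter strings were counted on both strands over the 300 bases from 250 before to 50 after a start. CCAAT was in 66.9% of promoters in the highest rank group (57.8 to 75.2; 63.1% without histone genes), 54.0% at ranks of 75 to 90, 50.4% at 50 to 75 and 56.0% at ranks up to 50, so it did not follow rank throughout. It was in 49.4% at RT7-alone and 46.2% at RT10-alone starts, and 38.2% of all. Histone promoters with a common site held it in 22 of 26 cases. GGGCGG, the core of the GC box, was in 71.1% of starts with a common site and in 72.7% and 70.4% of those found in 1 list alone, against 46.2% of all. CGGAAG, an ETS-type string that can overlap GGGCGG, was in 32.0% against 21.1%, and TGACGT, the first 6 letters of the cAMP response element, in 14.4% against 8.49%. Median GC content was 60.7% at starts with a common site, 61.3% and 61.0% at the single-list starts and 56.3% over all. In the highest rank group it was 58.3% and at histone promoters with a common site 44.2%, so it did not follow the CCAAT counts. The part of GC content in the counts of these strings was not tested.

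Away from gene ends, 812 common sites remained, and 649 of them had no other such site within 10000 bp. In all, 9 groups of 3 or more sites arose at that spacing, and the largest was at the Mir290 to Mir295 microRNA cluster, whose members are among the most abundant microRNAs of mouse ES cells. It held 7 common sites over chr7:3201355-3221758 (RT7 positions), a stretch with 9 RT7 summits. Of these, 6 lay upstream of the first hairpin, from 17271 to 914 bp before it. The farthest upstream site scored 41.7 in RT7 and 38.2 in RT10, and the one 914 bp upstream 26.2 and 32.6. The third from the upstream end, 11845 bp before the hairpin, ranked 200th in RT7 and 42nd in RT10, the best RT10 place of the group. The site downstream of the cluster was weak, with 5.88 and 2.95. The cluster is shown by its 3 mature microRNAs that share the seed AAGUGCU (bases 2 to 8, in capitals, RefSeq sequences of GRCm38.p6), out of 17 mature sequences of 9 hairpin genes.
mmu-miR-291a-3p, chr7:3218968-3218989, plus strand: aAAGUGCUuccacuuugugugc
mmu-miR-294-3p, chr7:3220691-3220712, plus strand: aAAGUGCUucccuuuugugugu
mmu-miR-295-3p, chr7:3220815-3220837, plus strand: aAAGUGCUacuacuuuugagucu
Other groups of 4 sites lay 17661 bp from the chromatin remodeller gene Smarcad1 and at Gpx4. Groups of 3 sites lay 46190 bp from Klf9, 2923 bp from Fblim1, 6112 bp from H4c8 and at Ier2, Usp48 and Tet2. Tet2 encodes a DNA demethylation enzyme. The highest mean percentile rank in these groups ran from 98.6 near Klf9 to 54.8 at Usp48, with 79.4 at Tet2. Strong sites outside these groups lay inside Ing1 (73.4 and 99.0) and inside H3f3b, 1365 bp from its end (57.8 and 46.1). Another lay between genes on chromosome 6 (61.3 and 69.5), 9754 bp from BC035044.

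Some common sites at protein-coding genes ranked far apart. Tomm40l, a mitochondrial import gene, had percentile ranks of 9.62 in RT7 and 92.9 in RT10. Kdm4a, a histone demethylase, had 1.73 and 81.3. In the other direction Kdm3a, also a histone demethylase, had 79.5 and 3.26, and Slc25a4, the mitochondrial ADP/ATP carrier, 75.8 and 5.03. Rab11fip3, Bnip5 and Rcn2 were also higher in RT10, and Mt2, the pair Izumo4 and Mob3a, and Gsto1 higher in RT7. With 1 list per line these are differences between the lists. The paired summits lay 247 bp apart at Mt2, 187 at Kdm3a, 178 at Rcn2, 169 at Bnip5 and 152 at Gsto1, so these may be separate sites. At the other genes they lay 9 to 89 bp apart.

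Single-list sites were weaker and, without matching for rank, more often away from gene ends. In the RT7 list 679 summits (25.5%) and in the RT10 list 1133 (36.5%) had no summit of the other within 1000 bp. At protein-coding gene ends, 285 genes (1.3%) had a summit in RT7 alone and 425 (1.94%) in RT10 alone. With the RT10 list shortened to the length of the RT7 list the order turned, with 341 genes in RT7 alone and 323 in RT10 alone. Among genes with no summit of the other list within 1000 bp of their own, the best-scored nuclear RT7 site outside the histones was at Rab5a, an early endosome GTPase, with a score of 20.6 (276th of the list), followed by 6430548M08Rik (18.1), Rhebl1 with Dhh (14.6), the immediate early gene Ier3 (12.6), Mpv17l2, Usp20 and Trmt10a with Mttp. In RT10 the best under the same limit, outside the histones, were Zfp444 (13.9, 627th), Ubald1, Gtf2h4, a TFIIH subunit gene (12.9), Esrra, an orphan nuclear receptor gene (12.9), Marf1, Fbxo31 and Galt. Without that limit Sfpq, a splicing factor gene, stood higher among the RT10-alone genes (25.3, 248th).

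Noncoding and distal sites also occurred in 1 list alone. Over all genes of the table, 0.726% had a summit in RT7 alone and 1.11% in RT10 alone. In RT7 the valine tRNA genes n-TVtac1 and n-TVtac2 (34.7) and the cysteine tRNA gene n-TCgca55 (32.1), and in RT10 the methionine tRNA gene n-TMcat14 (32.6), lacked the other line's summit within 1000 bp. The best RT10-alone site of all in the nuclear genome was 8099 bp from Ier2, an immediate early gene, with a score of 90.3 (12th of the list). An RT7 summit lay 2863 bp from it. The best RT7-alone site away from gene ends scored 36.1 (102nd) and lay on chromosome 8, 1171 bp from Gm42048.

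Most single-list sites had no counterpart in the lists from 4-OHT-treated cells either. Of 933 unpaired RT7 summits 70.1% and of 1375 unpaired RT10 summits 71.3% were in neither 4-OHT list. The same share over all EtOH summits was not counted, so it is not known to be particular to unpaired summits. The RT7 summits were found in the 4-OHT list of their own line in 15.3% and of the other line in 22.1%, and the RT10 summits in 23.5% and 10.8%. The RT10 4-OHT list, with 2188 summits, held more of both sets than the RT7 4-OHT list, with 1379. The part of list length in these shares was not tested. The best-scored RT7-alone sites outside the histones included Rab5a and Usp20, found in the RT10 4-OHT list only. Those at Rhebl1, Ier3 and Trmt10a were in both 4-OHT lists, and those at 6430548M08Rik and Mpv17l2 in neither. Of the RT10-alone sites, Zfp444 was in both 4-OHT lists, Ubald1 in that of RT7 only, and Gtf2h4 and Marf1 in neither. Those at Esrra, Fbxo31 and Galt were in the RT10 4-OHT list only.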

How the data were processed

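CUT&RUN for TBP was done in EtOH-treated RT7 and RT10 mouse ES cells. The submitters' processing notes name mm10, cutadapt 4.0, Bowtie2 2.4.4, SAMtools 1.15.1, bedtools, deepTools and MACS2 2.2.7.1, without roles or parameters, and do not say whether the TBP libraries of a group were pooled. The deposited score is the −log10 q-value at each summit of TBP over IgG, as the format and the peak names show. With no read depth per library its precision cannot be stated, and q-values were only ranked within a list.

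Summits within 250 bp were paired, and genes were assigned within 500 bp of an end in the RefSeq GRCm38.p6 gene table (49980 genes, 21900 of them protein-coding). Starts, strand and letters came from a RefSeq promoter table of that build. Shares carry exact Clopper-Pearson 95% intervals for counting error. Groups followed the titles, each list is 1 measurement, and no test was run. The 4-OHT lists served only for presence at unpaired sites.

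The sites and gene lists were chosen with earlier results of these data known. Named genes were the 25 best-ranked common sites at protein-coding gene ends, the 10 best single-list ones per list with no summit of the other list within 1000 bp, the 5 largest rank differences each way, up to 6 common and 4 single-list members per gene list, and the best noncoding and distal sites. Printed sequences, the Mir290 cluster, Taf7, Taf10 and distances to pluripotency genes were picked after values were seen. Alternatives were other pair and gene distances, a score minimum of 10, equal list lengths, the higher-scoring 50%, autosomes and X, and other TATA definitions; the alternatives by RefSeq start, without histone genes and with 1 start per gene were chosen after seeing the data. Python 3.11.15, NumPy 2.4.6, pandas 2.3.3, SciPy 1.17.1 and matplotlib 3.10.9 were used, and the pairing code was tested on simulated lists.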

Additional observations from a re-analysis of the deposited data

How the results depend on the processing

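Pair distance moved the share with a partner. In RT7 it was 47.0% within 100 bp, 71.6% within 500 bp and 74.5% within 1000 bp, and in RT10 40.4%, 61.0% and 63.5%. With the longer list shortened to the shorter, the shares were 61.5% in RT7 and 61.2% in RT10, so the gap between the lines in this share was not seen at equal length. Protein-coding genes with a summit in RT7 alone then numbered 341 and in RT10 alone 323, the reverse order of the full lists. A score of at least 10 in both lists gave 69.5% and 58.2%. It left 531 common sites and 293 protein-coding genes with a summit in both lists, 86 in RT7 alone and 147 in RT10 alone, fewer summits being used. The higher-scoring 50% of both lists gave 883 common sites. The share of common sites at a gene end was 43.8% within 250 bp, 58.5% within 1000 bp and 65.2% within 2000 bp, and 59.2% among sites in the upper 50% of both lists. TATAAA alone gave a TATA share of 3.78%. The other 27 values stayed inside the main interval or within 1.5 times the main count. Among gene list counts, 145 of 180 did so, and tRNA genes fell to 104 at 250 bp. A score of at least 10 left 3 pluripotency, 8 cytoplasmic ribosomal protein, 5 splicing, 3 heat shock and 7 U small nuclear RNA genes. No paired analysis was possible because each line has 1 list with no replicate number. Depth, and with it which weak sites could be called, is unknown in both lines.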

Other observations

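The X chromosome held few sites. It carried 16 of 1726 common sites (0.927%), while 4.41% of protein-coding genes of the table are X-linked, and 8 of 966 X-linked protein-coding genes (0.828%) had a summit in both lists, against 4.02% of all. The same was seen among unpaired summits, with 9 in RT7 and 20 in RT10. Chromosome 13 was at the other end, with 139 common sites (8.05%) for 3.79% of protein-coding genes. It carries the main histone cluster and 105 of the 403 tRNA genes, 69 of which had a summit in both lists.

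Common sites stood close together where such genes are clustered. On chr13:23492201-23586160, 19 common sites included 5 at tRNA genes, 7 at protein-coding genes, all of them histone genes, and 6 away from gene ends. On chr13:21200058-21279583, 11 of 14 common sites were at tRNA genes, coding for alanine, threonine, arginine and leucine tRNAs. On chr11:87423151-87471778 there were 7, at the genes Rnu1a1, Rnu3b1, Rnu3b2, Rnu3b3 and Rnu3b4 and nearby models. On chr11:69041684-69123881 there were 9, of which 2 were at tRNA genes, 4 at protein-coding genes (among them Per1 and Hes7) and 2 away from gene ends. These classes follow the nearest gene end, and further tRNA genes, such as n-TRtct4 and n-TLtag3 at the Hes7 site, also ended within 500 bp.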
